A study of Mus musculus with 12 samples.

Results

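The responses of liver and of gonadal white adipose tissue (GWAT, the fat depot beside the gonads) to a difference in Cav1 signal were set side by side on all 12 arrays of the series, of 12 in all. Within each tissue the arrays with a high Cav1 probe signal were compared with those with a low one. In liver these were the arrays labelled wild type (WT) and the arrays labelled Cav1 knockout (KO). In GWAT they were the reverse: the arrays labelled KO carried the high Cav1 signal and the arrays labelled WT the low one. The Cav1 signal itself chose the direction of each difference, so it is described here and not tested. A response below is a log2 difference, arrays with high minus arrays with low Cav1 signal, and its sign therefore follows Cav1 and, in GWAT, goes against the labels.

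There were 4 groups of 3 arrays, all from male mice of strain FVB. They were liver labelled WT and liver labelled caveolin-1 KO, both from mice aged 12 weeks, and GWAT labelled WT and GWAT labelled caveolin-1 KO, both from mice aged 8 weeks. The mice were anaesthetised with ketamine and xylazine at 3 PM, in the light phase, per labels whose collection text names livers alone. The labels name the knockout without its allele, and nothing in them says that the arrays of a group came from different animals, so every p-value rests on a spread that may be technical. Tissue and age cannot be told apart, because each tissue has its own age.

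Caveolin-1 is the main coat protein of caveolae, the small flask-shaped pits of the plasma membrane. Caveolae form where caveolins meet the cavin proteins, with EHD and pacsin proteins at the neck, and they are especially dense in adipocytes and endothelial cells and sparse in hepatocytes. They are known for roles in lipid uptake and storage, in membrane tension and in signalling from receptors at the cell surface. In whole tissue, fewer cells of a type and less RNA per cell cannot be told apart.

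Each array held 45281 probes. Probes were called above background against receptor probes for odorants, pheromones and trace amines, which liver and fat should lack. This gave 33.7 to 36.6% of probes above background in liver and 44.8 to 48.6% in GWAT. In both tissues together 12465 named probes were above background, for 8553 genes, and 7156 of these genes were above background on every array. A further 863 named probes passed in liver alone and 5686 in GWAT alone, and these enter no comparison of tissues. The labelled tissues matched their defining markers: 14 of 15 hepatocyte markers were above background in liver against 6 of 15 in GWAT, where Alb was not, and 11 of 11 adipocyte markers were above background in GWAT against 4 of 11 in liver, where Adipoq and Plin1 were not. Of the liver arrays, KO 1 and KO 3 stood apart. Their median difference from the mean of the other arrays of their group was 0.229 and 0.255 on the log2 scale, against 0.152 to 0.170 for the other liver arrays and 0.0848 to 0.136 in GWAT. Beside Cav1, 73 genes named here or in the closing section passed the test of a difference between tissues that is described below. All 73 still passed without KO 1 and 71 of them without KO 3, with no change of sign; the sizes that moved most are given with the genes.

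In liver, Cav1 intensity was 172, 167 and 210 on the arrays labelled WT, against 110, 117 and 113 on those labelled KO. In GWAT it was 14600, 15110 and 17480 on the arrays labelled KO, against 112, 108 and 111 on those labelled WT. No array of a low group reached its high group in either tissue. The background threshold was 121 to 124 in liver and 70.4 to 73.8 in GWAT. Cav1 was thus just below background on all 3 liver KO arrays and clearly above it on the 3 GWAT WT arrays. On the background-corrected log2 scale its mean was 6.07 on the GWAT WT arrays and 6.46 on the liver WT arrays. The liver group means of 183 and 114 differ 1.61-fold with no background subtracted. On the background-corrected scale the WT mean lay 2.89-fold over the detection limit of the KO arrays, so the size of the liver difference depends on the background correction. The GWAT response was 7.87 (SE 0.09). Cav1 was thus dim in liver even where it was high, and the 2 responses are not set against each other as a ratio.

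Of the 13 caveola genes listed, 7 were above background in both tissues. Leaving out Cav1, 5 of the other 6 had responses of the same sign in both, beside 50.8% of all genes. The liver responses of Cavin2, Ehd4 and Pacsin2 among them were smaller than their SE, so their signs are uncertain. By its brightest probe none of the 6 passed limma's test of a difference between tissues, and none had an unadjusted p under 0.05 there. Cavin1, the cavin needed for caveola formation, had responses of -0.51 (SE 0.27, adjusted p = 0.563) in liver and -0.60 (SE 0.10, adjusted p = 7.48e-04) in GWAT. Its GWAT intensities were 4075, 3719 and 5058 with high Cav1 and 6311, 6481 and 6421 with low Cav1, while its liver intensities of 114 to 150 lay near background in both groups. A second Cavin1 probe, which was below background in liver, gave -1.03 in GWAT. Cavin3 differed in GWAT (-0.35, SE 0.07, adjusted p = 0.00220) and had a liver response of 0.04 (SE 0.27). Cavin2 (-0.03 in liver and -0.07 in GWAT), Ehd4 (0.06 and 0.04), Pacsin2 (0.17 and 0.13) and Pacsin3 (0.27 and 0.31) passed the threshold in neither tissue. Pacsin3 had a further pair of probes above background on all arrays, and these disagree in liver: one gave 0.40 and 0.31, the other -0.52 and 0.31, a difference of -0.83 that passed (adjusted p = 0.0420).

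Promoter sequence is given for the genes on which the comparison turns. These are Cav1, the 2 other genes past the threshold in both tissues, and the pair with the largest difference beside Cav1 among the genes named here. The sequences are the 250 bases before the annotated start, from RefSeq on build GRCm38.p6, read 5′ to 3′ on the gene's strand: Cav1 at chr6:17306085-17306334 (plus strand), Rpa3 at chr6:8259142-8259391 (minus), Lyz2 at chr10:117282273-117282522 (minus), Serpina1b at chr12:103738190-103738439 (minus) and Serpina1d at chr12:103773634-103773883 (minus). Capitals mark CCAAT or its reverse complement ATTGG in the first 3, and GTTAAT or ATTAAC, the half-site of the HNF1 motif of liver genes, in the last 2.
Cav1: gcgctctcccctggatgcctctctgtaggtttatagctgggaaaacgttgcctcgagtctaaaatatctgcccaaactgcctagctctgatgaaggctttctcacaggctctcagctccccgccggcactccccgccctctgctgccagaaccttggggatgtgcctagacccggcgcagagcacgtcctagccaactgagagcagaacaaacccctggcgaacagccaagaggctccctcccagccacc
Rpa3: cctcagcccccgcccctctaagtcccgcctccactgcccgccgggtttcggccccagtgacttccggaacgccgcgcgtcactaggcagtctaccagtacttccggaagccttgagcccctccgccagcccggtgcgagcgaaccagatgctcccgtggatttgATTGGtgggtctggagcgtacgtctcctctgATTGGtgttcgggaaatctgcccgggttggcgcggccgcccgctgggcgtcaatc
Lyz2: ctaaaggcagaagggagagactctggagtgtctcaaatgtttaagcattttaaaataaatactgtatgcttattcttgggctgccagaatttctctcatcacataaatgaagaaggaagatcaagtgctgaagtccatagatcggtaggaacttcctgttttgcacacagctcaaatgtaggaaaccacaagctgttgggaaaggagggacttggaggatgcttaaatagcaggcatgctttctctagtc
Serpina1b: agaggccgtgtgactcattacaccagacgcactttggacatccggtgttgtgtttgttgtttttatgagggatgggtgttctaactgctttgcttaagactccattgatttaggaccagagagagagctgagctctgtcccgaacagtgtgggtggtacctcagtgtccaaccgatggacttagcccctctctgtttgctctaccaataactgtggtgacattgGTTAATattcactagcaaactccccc
Serpina1d: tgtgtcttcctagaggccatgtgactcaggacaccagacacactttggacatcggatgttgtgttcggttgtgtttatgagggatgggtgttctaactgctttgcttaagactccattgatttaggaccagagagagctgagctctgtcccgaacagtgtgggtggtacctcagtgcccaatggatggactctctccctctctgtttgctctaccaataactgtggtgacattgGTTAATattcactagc

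Of the first 3 promoters, CCAAT was found only in that of Rpa3, with 2 matches. Both strands were searched, and 33.8% of 32851 promoters of this length hold it. The HNF1 half-site occurred once in each Serpina1 promoter and in 6.43% of all promoters. AP-1 (TGACTCA) also occurred once in each of these promoters, against 4.46% of all, and TATAAA once in Cav1, against 12.4%. The Serpina1b and Serpina1d promoters were identical at 223 of 238 aligned bases (93.7%). These matches describe the letters in the window and are not sites of binding.

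Across the 8553 genes, the liver response and the GWAT response were close to uncorrelated. Pearson's r was -2.46e-05 and Spearman's coefficient -0.0215, and without Cav1 they were -0.0191 and -0.0219. These are descriptions across genes, which share arrays and are not independent replicates. Leaving out single arrays moved r between -0.0326 and 0.0365. Over the 7156 genes above background on every array r was -0.0240, and over the 2526 genes past the threshold in GWAT it was 0.0179 with Cav1 and -0.0198 without it. Over the 104 genes that passed in GWAT with at least a 2-fold change it was higher, at 0.412 (Spearman 0.183) with Cav1 and 0.232 (Spearman 0.159) over the 103 without it. The typical response was small beside its error in liver, where the median size was 0.151 and the median SE 0.187, and larger beside it in GWAT, where they were 0.197 and 0.107.

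**Figure D1:**
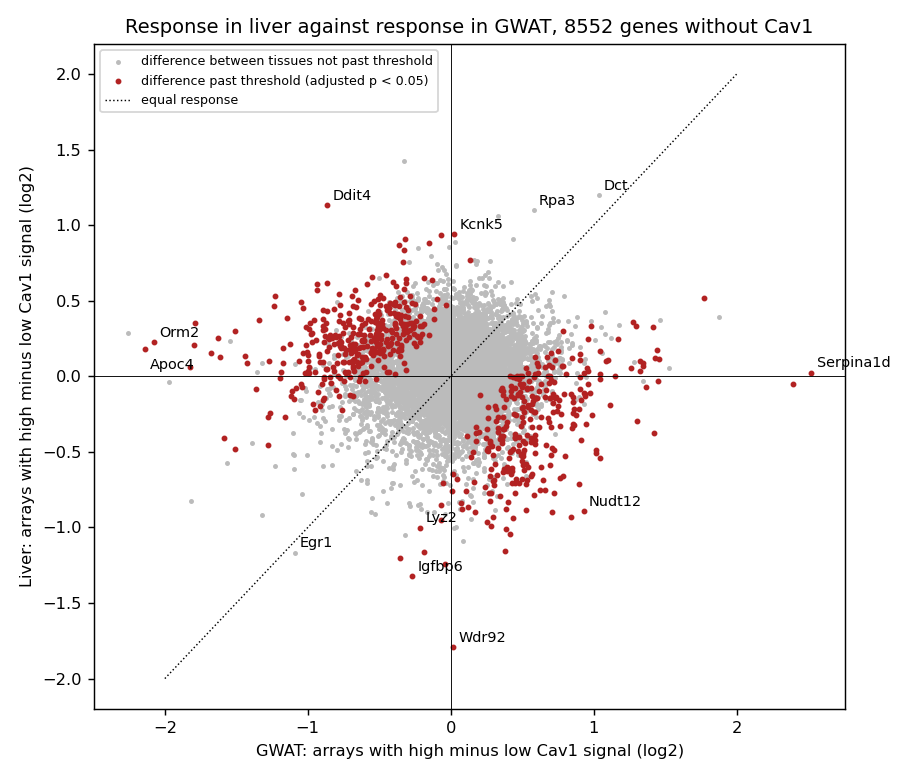
Response of each of 8552 genes (all tested but Cav1) in liver, on the vertical axis, against its response in GWAT, on the horizontal axis, both as log2 differences of arrays with high minus low Cav1 signal. Red points passed the test of a difference between tissues (adjusted p under 0.05), and the dotted line marks equal responses. The cloud shows no slope (Pearson's r = -0.0191), and the red points lie away from the dotted line.

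The 2 tissues differed widely in how many genes passed a test of their own (limma, Benjamini-Hochberg adjusted p under 0.05 over 8553 genes). In GWAT 2526 genes passed, 29.5% of those tested: 1349 (15.8%) were higher and 1177 (13.8%) lower with high Cav1 signal. In liver 6 genes passed, 0.0702% of those tested, with 4 higher and 2 lower, while an unadjusted p under 0.05 was reached by 800 genes (9.35%). Cav1 is in both lists by the choice of contrasts. Of the other 5 liver genes, 2 also passed in GWAT, each with the same sign in both tissues: Rpa3 was higher and Lyz2 was lower. These 2 are 40% of the liver list and 0.0792% of the GWAT list without Cav1. With Cav1 counted, 103 genes passed in liver without liver KO 1 and 47 in both tissues, of which 18 had the same and 29 the opposite sign. Without liver KO 3, the liver count was 23, with 13 in both tissues, 10 of the same sign. Without liver WT 1, WT 2 or KO 2 it was 3, 2 and 3. The GWAT count was 1601 without GWAT WT 2 and 1590 without GWAT KO 2.

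Genes that passed in GWAT carried the GWAT sign in liver about as often as the opposite one. Of the 2526, 1283 (50.8%) had the same sign in liver, the same share as over all genes (4344 of 8553, 50.8%). Of the GWAT genes, 296 (11.7%) had an unadjusted liver p under 0.05, beside 9.35% over all genes. For 1405 of them (55.6%) the 95% interval of the liver response held 0 and left out the GWAT value, and for 825 (32.7%) it held both, so that liver could not tell the GWAT value from 0. At 2-fold or more in GWAT there were 104 genes, Cav1 among them, and 63 of these (60.6%) had the same sign in liver. For 81 of the 104 (77.9%) the liver interval held 0 and not the GWAT value, and for 4 it held both. Among the 104, 3 genes, Cav1 included, had a response of 2-fold or more in liver, and 72 passed the test of a difference between tissues.

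The test of the difference, liver response minus GWAT response, was passed by 656 genes (7.67%), 358 (4.19%) with the larger value in liver and 298 (3.48%) with the larger value in GWAT. An unadjusted p under 0.05 was found for 2004. The count was 1078 without liver KO 1, and 340, 378 and 363 without GWAT WT 2, KO 2 and KO 3. Of the 656, 587 (89.5%) had also passed in GWAT, 5 in liver and 66 in neither tissue, and in 558 (85.1%) the 2 responses had opposite signs. The mean of the responses was passed by 644 genes (7.53%), 363 higher and 281 lower with high Cav1, and in 555 of these (86.2%) the responses had the same sign. That count was 983 without liver KO 1, and 389, 322, 308 and 328 without GWAT WT 1, WT 2, KO 2 and KO 3. Over all genes 50.8% had the same sign in both tissues. The test of the difference favours opposite signs, and the test of the mean favours the same sign. The shares of 85.1% and 86.2% therefore follow largely from the selection and do not describe how the tissues respond. Each of these tests is the other with the GWAT sign turned: if the GWAT arrays are taken by their labels, the 644 genes are those whose KO-minus-WT differences differ between tissues. The counts of genes are therefore about equal under either reading of the GWAT labels. In GWAT the Cav1 signal goes against the labels, and the source of this was not tested.

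Rpa3, a subunit of the single-stranded DNA binding protein RPA, passed in both tissues with the same sign. In liver its intensity was 685, 655 and 626 with high Cav1 and 371, 394 and 308 with low Cav1. In GWAT it was 794, 861 and 940 with high Cav1 and 617, 569 and 589 with low Cav1. The groups did not overlap in either tissue. The response was 1.10 (SE 0.16, adjusted p = 0.00926) in liver and 0.58 (SE 0.09, adjusted p = 5.69e-04) in GWAT, and the difference of 0.52 (SE 0.18, adjusted p = 0.0872) did not pass. With the GWAT arrays taken by label, Rpa3 was lower in liver KO and higher in GWAT KO. It was measured by 1 probe, and the liver call was lost in 3 of 6 fits that left out an array (without WT 1, WT 2 or WT 3, highest adjusted p 0.180).

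Lyz2, the lysozyme of macrophages and neutrophils, was lower with high Cav1 in both tissues. In liver its intensity was 419, 447 and 501 with high Cav1 and 751, 785 and 922 with low Cav1, with no overlap. In GWAT, where it was brighter, it was 6536, 6410 and 6669 against 6812, 8028 and 7909, again with no overlap and a smaller gap. The responses were -1.0 (SE 0.15, adjusted p = 0.0111) in liver and -0.21 (SE 0.07, adjusted p = 0.0454) in GWAT, and the difference of -0.79 (SE 0.15) passed with an adjusted p of 0.00578. A second Lyz2 probe above background gave -0.24 in liver and 0.21 in GWAT, so the probes disagree on the GWAT sign. The liver call was lost in 3 of 6 fits that left out an array (without WT 1, WT 2 or KO 2, highest adjusted p 0.180). Lyz1, a near copy whose probes may bind the same transcripts, had responses of -0.37 and -0.20.

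The other 3 genes that passed in liver differed between tissues. Wdr92 was lower with high Cav1 in liver, at 162, 202 and 160 against 447, 307 and 370, and in GWAT it lay between 1565 and 2045 in overlapping groups. Its liver response was -1.79 (SE 0.23, adjusted p = 0.00714) against 0.01 (SE 0.10) in GWAT, and the difference of -1.81 (SE 0.27) had an adjusted p of 8.61e-04. The other Wdr92 probe above background did not show this, with 0.27 in liver. Kcnk5, a two-pore potassium channel, was higher in liver (1414, 1410 and 1596 against 919, 771 and 754) and had a GWAT response of 0.02 (SE 0.12). Hes6, a transcription factor of the Hairy/Enhancer-of-split family, was higher in liver (1947, 1986 and 1821 against 1228, 1043 and 944) with a GWAT response of -0.32 (SE 0.12, adjusted p = 0.0582). The liver responses were 0.94 and 0.91 (SE 0.13 each, adjusted p = 0.00926 each), and the differences between tissues of 0.92 and 1.23 both passed. Both liver calls were lost in 4 of 6 fits that left out an array, namely each WT array and KO 2, with adjusted p of up to 0.159 for Kcnk5 and 0.180 for Hes6. The Wdr92 call was lost without WT 1 (adjusted p = 0.0562). Other probes above background gave 0.71 for Kcnk5 and 0.03 and 0.13 for Hes6. Averaged over each gene's probes, none of Wdr92, Kcnk5, Hes6 and Lyz2 passed in liver.

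Beyond the adjusted threshold, 74 genes (0.865% of those tested) had an unadjusted p under 0.01 in both tissues. Of these, 10 had higher values with high Cav1 in both tissues, 21 had lower values in both, 10 were above 0 in liver and below it in GWAT, and 33 were below 0 in liver and above it in GWAT. Same signs thus numbered 31, Cav1 among them, and opposite signs 43; by the labels these 2 numbers change places. The genes named next were picked from these 74 by their p-values, so their tests describe the choice and support nothing further.

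Dct, dopachrome tautomerase of the melanin pathway, had higher values in both tissues. In liver its intensity was 503, 796 and 782 with high Cav1 against 384, 392 and 281. In GWAT it was 107, 107 and 115 against 73.7, 71.5 and 80.5, near background, with 2 of the 3 low-Cav1 arrays above it. The responses of 1.20 (SE 0.22) and 1.03 (SE 0.16) differed by 0.17 (SE 0.30), and a second probe gave 0.94 and 0.93. Ndufb8, a subunit of respiratory complex I, had responses of 0.33 (SE 0.09) and 0.61 (SE 0.06), at intensities of 7389 to 10150 in liver and 7045 to 11480 in GWAT with no overlap between the groups of either tissue. A second Ndufb8 probe, above background on all arrays, gave -0.03 in liver and 0.34 in GWAT, so the probes disagree in liver. Csrp2, a LIM-domain protein, had responses of 0.51 (SE 0.15) and 0.34 (SE 0.09).

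Vim, the intermediate filament of mesenchymal cells, had lower values with high Cav1 in both tissues. In liver its intensity was 161, 162 and 170 against 245, 208 and 231, and in GWAT 10980, 10600 and 10300 against 15880, 16140 and 14110. No groups overlapped. The responses were -0.91 (SE 0.19, adjusted p = 0.156) and -0.53 (SE 0.07, adjusted p = 1.51e-04), and their mean of -0.72 (SE 0.08) passed with an adjusted p of 3.80e-05. Socs2, a feedback inhibitor of growth hormone signalling, had responses of -0.74 (SE 0.14) and -0.42 (SE 0.10) and a mean response of -0.58 (SE 0.09, adjusted p = 8.26e-04). Plpp1, a phospholipid phosphatase, had responses of -0.56 (SE 0.15) and -0.59 (SE 0.09). Agt, the precursor of angiotensin, had lower values in both tissues and by more in GWAT, with responses of -0.48 (SE 0.13) and -1.51 (SE 0.13) and a difference of 1.03 (SE 0.20, adjusted p = 0.00524).

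The largest mean responses of the same sign in both tissues included genes that liver moved little. Serpina1d, Myl4, Mfsd2a and Cxcl9 were higher, and their liver responses of 0.02 to 0.52 stood beside GWAT responses of 1.41 to 2.52. Mfsd2a was near background in GWAT, at 257, 110 and 92.8 with high Cav1 against 74.8, 49.8 and 62.1. It was above background on 1 of the 3 GWAT arrays with low Cav1. Its mean response was 0.82 without GWAT KO 1 and 1.35 without GWAT KO 3. Egr1, Fos, Rgs1, Net1 and Nipal1 had lower values, at -0.41 to -1.17 in liver and, leaving out Nipal1, -1.09 to -1.59 in GWAT. Egr1, an immediate early transcription factor, was the closest to equal, with responses of -1.17 (SE 0.36) and -1.09 (SE 0.16) and a mean of -1.13 (SE 0.24, adjusted p = 0.00993). Its liver values were 1397, 756 and 1857 with high Cav1 and 4737, 2737 and 1498 with low Cav1, so the liver groups overlapped through KO 3. The mean response was -1.35 without that array and -0.92 without KO 1. Nipal1 was not above background on any GWAT array with high Cav1, and its GWAT group means of 128 with low and 64.4 with high Cav1 differ 1.98-fold with no background subtracted. On the background-corrected scale the group with low Cav1 lay 2.84-fold over the detection limit, so the size depends on the background correction.

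**Figure D2:**
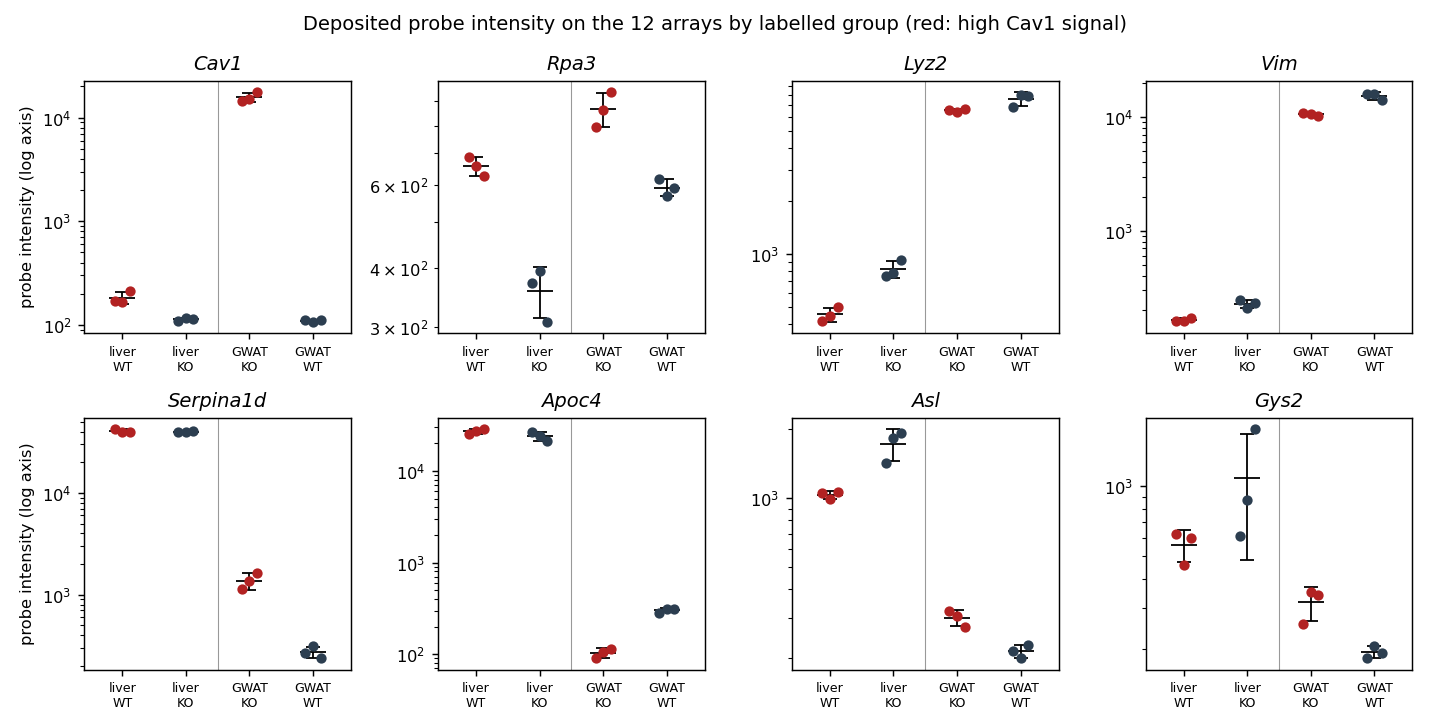
Deposited probe intensity (log axis, arbitrary units) of 8 genes on each of the 12 arrays, in the 4 labelled groups. Points are arrays, red with high and dark with low Cav1 signal, and lines are the mean and SD of 3 arrays. Rpa3, Lyz2 and Vim shift the same way in both tissues, Serpina1d and Apoc4 separate in GWAT with overlapping liver groups, and Asl shifts in opposite ways.

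Serpina1d and Serpina1b, which encode alpha-1-antitrypsin, the protease inhibitor that liver secretes, showed the largest differences beside Cav1 among the genes named here. In GWAT Serpina1d intensity was 1127, 1352 and 1625 with high Cav1 against 269, 310 and 239, and Serpina1b was 2402, 2563 and 2831 against 461, 559 and 570. In liver the groups overlapped, at 39840 to 42250 for Serpina1d and 37150 to 42770 for Serpina1b, near the top of the intensity range, where arrays compress differences. The responses of Serpina1d were 0.02 (SE 0.08) in liver and 2.52 (SE 0.14) in GWAT, a difference of -2.50 (SE 0.17, adjusted p = 1.08e-07). Serpina1b gave -0.05 (SE 0.09) and 2.40 (SE 0.10), a difference of -2.44 (SE 0.14, adjusted p = 6.30e-09), and its other probes gave -2.50 and -2.34. The Serpina1 genes are near-identical copies whose probes may share transcripts, so which copy carried the change is uncertain. Serpina1a, in the same family, had responses of 0.05 and 0.24.

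Hepatocyte markers in GWAT went in several directions. Of 15 on the array, 6 were above background there by their brightest probe, and 7 could be tested in both tissues. Their summed intensity in GWAT was 22450 to 24970 with high and 17260 to 18790 with low Cav1, most of it Cyp2e1 (21850 to 24360 against 16590 to 18160). Ahsg, the fetuin of liver, went the other way, with a GWAT response of -0.89 (SE 0.19, adjusted p = 0.00467). Alb was not above background in GWAT. The part of hepatocyte RNA in these GWAT values was not tested.

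Several other genes of secreted and liver-enriched products were lower in GWAT with high Cav1 and not in liver. Apoc4, an apolipoprotein of very low density lipoproteins, had GWAT intensities of 90.5, 105 and 115 with high Cav1 and 285, 312 and 316 with low Cav1, against overlapping liver values of 21170 to 28370. Its responses were 0.18 (SE 0.10) in liver and -2.14 (SE 0.15) in GWAT, a difference of 2.32 (SE 0.19, adjusted p = 8.68e-07). Orm2, an acute phase glycoprotein, had GWAT intensities of 244, 305 and 328 against 1116, 1178 and 968, and liver values spread from 548 to 2416 in overlapping groups. The difference was 2.30 (SE 0.55, adjusted p = 0.0158), and it was lost with robust variance estimation (adjusted p = 0.116). It was 2.92 without liver KO 1 and 1.74 without KO 3. Cyp2f2, a cytochrome P450 of airway and liver, had liver intensities of 22730, 22370 and 24240 with high Cav1 against 21170, 19280 and 19540, and GWAT intensities of 104, 89.7 and 104 against 216, 222 and 271. The groups did not overlap in either tissue, with opposite order. It had responses of 0.21 (SE 0.09) and -1.80 (SE 0.15), a difference of 2.01 (SE 0.17).

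Further genes in this direction act in signalling or at the cell surface. Tnfrsf12a, the receptor of the cytokine TWEAK, had GWAT intensities of 312, 368 and 310 with high Cav1 and 955, 913 and 1003 with low Cav1, and overlapping liver values of 135 to 170. Its responses of 0.16 (SE 0.25) and -1.68 (SE 0.10) differed by 1.84 (SE 0.27, adjusted p = 8.61e-04). Ubd, a ubiquitin-like protein induced by cytokines, gave 0.07 (SE 0.27) and -1.83 (SE 0.11). Its liver intensities of 125.7 to 150 lay near background in both groups. Anpep, the membrane aminopeptidase CD13, gave 0.26 (SE 0.13) and -1.63 (SE 0.21), with liver groups that did not overlap, and Plekhg6 gave 0.35 (SE 0.28) and -1.79 (SE 0.16). Ddit4, an inhibitor of mTORC1, spread from 168 to 348 on liver WT and from 130 to 207 on liver KO arrays and had responses of 1.13 (SE 0.40, adjusted p = 0.459) and -0.87 (SE 0.11, adjusted p = 1.51e-04). Its difference of 2.00 (SE 0.50, adjusted p = 0.0203) was lost in 3 of 12 fits that left out an array (highest adjusted p 0.0581).

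**Figure D3:**
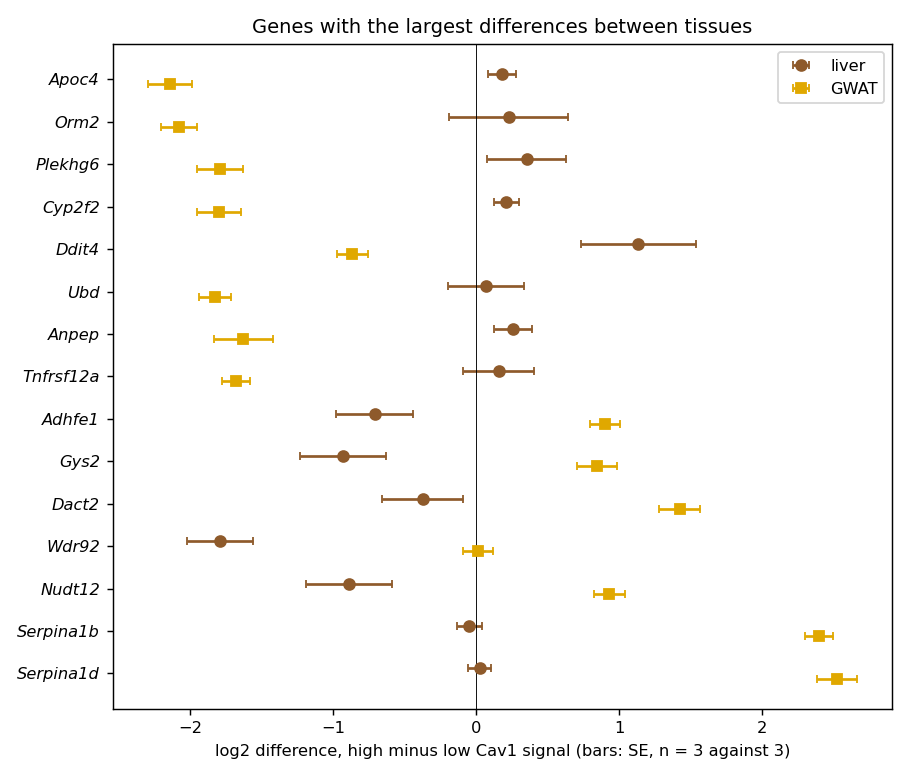
Responses in liver (brown circles) and GWAT (yellow squares) of the 15 genes ranked with the largest differences between tissues beside Cav1. Values are log2 differences of arrays with high minus low Cav1 signal, and bars are SE, with 3 arrays against 3. Genes were ranked if annotated, past the test of a difference, and above background on all arrays of a group in each tissue. From Apoc4 to Tnfrsf12a the GWAT values lie below 0, and Serpina1b, Serpina1d and Dact2 lie above 1 in GWAT with liver values near or below 0.

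Several metabolic genes had lower values in liver and higher ones in GWAT with high Cav1. Asl, argininosuccinate lyase of the urea cycle, had liver intensities of 1050, 992 and 1063 with high Cav1 against 1422, 1842 and 1933. In GWAT it had 320, 305 and 274 against 214, 200 and 229, so the groups separated in both tissues in opposite ways. The responses were -0.78 (SE 0.14, adjusted p = 0.0576) and 0.58 (SE 0.11, adjusted p = 0.00256), their difference was -1.37 (SE 0.19, adjusted p = 4.00e-04), and the other probe gave -0.78 and 0.64. Gys2, the glycogen synthase of liver, had responses of -0.93 (SE 0.30) and 0.84 (SE 0.14), and its other probe gave -0.91 and 0.72. In liver its KO values were 612, 876 and 1763 against 623, 459 and 598, so the groups overlapped through KO 1, and KO 3 was highest. Nudt12, a peroxisomal NADH hydrolase, gave -0.89 (SE 0.30) and 0.93 (SE 0.11), also with liver KO 3 highest, at 450 beside 208 and 267. Adhfe1, a mitochondrial hydroxyacid transhydrogenase, gave -0.71 (SE 0.27) and 0.90 (SE 0.10), while 1 of its 2 other probes gave 0.12 in liver and 0.47 in GWAT, a difference that did not pass. In each of Gys2, Nudt12 and Adhfe1 the liver response did not pass its own test (adjusted p = 0.421, 0.448 and 0.468). Without liver KO 1 their differences between tissues were -2.16, -2.19 and -1.98, and without KO 3 they were -1.31, -1.38 and -1.27; all of these passed.

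The same direction held Adh5 (-0.60 and 0.43), the formaldehyde-oxidising alcohol dehydrogenase, Gpat3 (-0.83 and 0.40), an acyltransferase of triglyceride synthesis, Rbbp7 (-1.05 and 0.42), a histone-binding subunit of chromatin complexes, and Smu1 (-0.77 and 0.45), a splicing factor. Of 3 further Rbbp7 probes, 1 gave the opposite signs, 0.52 and -0.14. Gpat3 had liver intensities of 211, 177 and 206 with high Cav1 against 257, 281 and 297, and GWAT intensities of 2257, 2077 and 1994 against 1395, 1753 and 1698, with no overlap in either tissue. In the other opposite direction, higher in liver and lower in GWAT, stood Whamm (0.61 and -0.93), an actin nucleation factor at membranes, Ddah1 (0.50 and -0.53), which breaks down an inhibitor of nitric oxide synthase, Cyb5b (0.46 and -0.32), the outer mitochondrial membrane cytochrome b5, Tlr5 (0.66 and -0.55), the flagellin receptor, and Pim3 (0.46 and -0.36), a serine/threonine kinase. Ddah1 had liver intensities of 1062, 1052 and 1226 against 783, 790 and 864, and GWAT intensities of 480, 525 and 521 against 751, 652 and 750. The groups again did not overlap.

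Mitochondrial genes were higher in GWAT with high Cav1, and few of them moved in liver. Of 67 respiratory chain genes tested, 46 (68.7%, beside 15.8% of all genes) were higher and none lower in GWAT, none passed limma's test in liver (9 higher and 1 lower at an unadjusted p under 0.05), and 8 (11.9%, beside 7.67% of all genes) passed the test of a difference, all with the larger response in GWAT. The list's median response was 0.31 in GWAT and 0.09 in liver, beside 0.03 and 0.04 over all genes. Atp5pb, a stalk subunit of ATP synthase, had GWAT intensities of 3633, 3576 and 3633 with high Cav1 against 2563, 2385 and 2447, and liver intensities of 1873, 1820 and 1917 against 2304, 2686 and 2496. Groups separated in both tissues in opposite ways, and the responses of 0.56 (SE 0.07) in GWAT and -0.43 (SE 0.11) in liver differed by -0.99 (SE 0.12, adjusted p = 1.61e-04). Another Atp5pb probe above background in both tissues gave 0.23 in GWAT and 0.34 in liver, a difference that did not pass. A further one gave 0.65 and -0.30, so the probes disagree in liver. Sdhb, a succinate dehydrogenase subunit with iron-sulfur clusters, gave 0.85 (SE 0.08) in GWAT and -0.24 (SE 0.14) in liver. Other Sdhb probes gave 0.92 and -0.10, a difference that passed, and 0.34 and 0.22, a difference that did not. A positive liver response was found for 51 of the 67 (76.1%, beside 57.6% of all genes). The list's mean log2 level overlapped in liver, at 11.55, 11.47 and 11.53 on WT against 11.56, 11.44 and 11.3 on KO arrays, with KO 3 lowest. The test of the mean response was passed by 23 of the 67 (34.3%, beside 7.53% for either direction of all genes), all higher. By their brightest probes, Ndufs4, Atp5c1 and Sdhb passed both tests with liver responses below 0, so for these the mean rests on GWAT.

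Fatty acid oxidation and the tricarboxylic acid cycle showed the same GWAT direction. Of 18 fatty acid oxidation genes, 12 (66.7%, beside 15.8% of all genes) were higher and none lower in GWAT, none passed in liver (0 higher and 3 lower at an unadjusted p under 0.05), and 5 (27.8%, beside 7.67%) passed the test of a difference, each with the larger response in GWAT. Their median was 0.41 in GWAT and -0.06 in liver, and 17 were positive in GWAT against 6 in liver. Acadl, the long-chain acyl-CoA dehydrogenase, had liver intensities of 371, 307 and 298 with high Cav1 against 375, 546 and 714, and GWAT intensities of 472, 573 and 549 against 341, 365 and 317. Its responses of -0.90 (SE 0.24, adjusted p = 0.291) and 0.71 (SE 0.11, adjusted p = 4.97e-04) differed by -1.61 (SE 0.30, adjusted p = 0.00390), but its other probe above background gave 0.20 and 0.65. The Acadl difference was -1.91 without liver KO 1 and -1.34 without KO 3. Acaa2, the thiolase of the last step, gave -0.63 (SE 0.19) and 0.39 (SE 0.07), and 1 of its 3 other probes had a positive liver response of 0.18, while all 3 gave differences of -1.03 to -1.06 that passed. Its difference was -1.25 without liver KO 1 and -0.78 without KO 3, and passed in both. Of 15 tricarboxylic acid cycle genes, 10 (66.7%) were higher in GWAT and 3 (20%) passed the test of a difference (Idh2, Pdhb and Suclg1), with medians of 0.39 in GWAT and 0.04 in liver. Idh2, the mitochondrial NADP-dependent isocitrate dehydrogenase, gave 0.76 (SE 0.18) in GWAT and -0.33 (SE 0.14) in liver. Of 36 genes of mitochondrial ribosomes and protein import, 16 (44.4%) were higher and 1 lower in GWAT, and 3 passed the test of a difference, a share (8.33%) near that of all genes.

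Markers of muscle moved with these genes in GWAT. The 4 smooth muscle markers tested had a summed intensity of 15310 to 23800 with high Cav1 and 12600 to 14280 with low Cav1 in GWAT, against 2244 to 2736 and 2630 to 2941 in liver. Of the 4, 3 (75%, beside 15.8% of all genes) were higher in GWAT: Des, Acta2 and Mylk, the myosin light chain kinase. The Mylk responses of 0.77 (SE 0.15) in GWAT and -0.25 (SE 0.13) in liver differed by -1.02 (SE 0.21, adjusted p = 0.00778). The 3 skeletal muscle markers tested had summed intensities of 388 to 495 with high and 335 to 347 with low Cav1 in GWAT. The 4 adipocyte markers tested overlapped in GWAT, at 77400 to 81230 and 72880 to 81080. In GWAT 11 adipocyte markers were above background, but those dim in liver, among them Adipoq and Plin1, are not in these sums. The muscle sums likewise hold only markers above background in both tissues, out of 10 smooth and 15 skeletal muscle markers on the array. The part of muscle RNA in the mitochondrial result was not tested.

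Macrophage genes were lower with high Cav1 in GWAT, and most had negative values in liver too. Of 19 macrophage markers tested, 13 (68.4%, beside 13.8% of all genes) were lower and none higher in GWAT, 1 (Lyz2) was lower in liver and 4 at an unadjusted p under 0.05, and 8 (42.1%, beside 7.53% for either direction of all genes) passed as a lower mean response. Median responses were -0.39 in GWAT and -0.25 in liver, and 15 of the 19 were negative in liver, beside 42.4% of all genes. Summed intensity was 39090 to 42100 with high Cav1 against 52050 to 56190 with low Cav1 in GWAT, and 9251 to 9882 against 11110 to 12090 in liver, so that the sums did not overlap in either tissue. The brightest markers carry such a sum. The list's mean log2 level overlapped in liver, at 7.66, 7.84 and 7.88 on WT against 8.13, 8.01 and 7.88 on KO arrays (WT 3 at 7.880, KO 3 at 7.879), and did not in GWAT, at 9.48 to 9.65 with high against 9.82 to 9.96 with low Cav1. The genes C1qb, C1qc, Fcgr3, Mrc1 and Ctsk passed the mean response with responses of -0.24 to -0.50 in liver and -0.46 to -0.62 in GWAT. Lgals3, the galectin of phagocytes, was lower in GWAT by more than these, at 2029, 2869 and 3522 against 8017, 8137 and 8759, with overlapping liver values of 322 to 480. Its responses of -1.62 (SE 0.15) and 0.13 (SE 0.19) differed by 1.75 (SE 0.26, adjusted p = 8.61e-04). Lgals3 is also among the 8 with a lower mean response, which for it rests on GWAT. Over the alternatives, the macrophage median stayed between -0.471 and -0.308 in GWAT and between -0.274 and -0.0989 in liver.

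Genes of antigen presentation by MHC class II were also lower in GWAT. Of 7 tested, 6 (85.7%, beside 13.8% of all genes) were lower there, and 3 (42.9%, beside 7.53% for either direction) passed as a lower mean response. None passed limma's test of a difference, where Cd74 and H2-Ab1 had an unadjusted p under 0.05. Cd74, the invariant chain, gave -0.26 in liver and -0.76 in GWAT, H2-Ab1 gave -0.29 and -0.73, and H2-DMa gave -0.39 and -0.50. The medians were -0.25 in liver and -0.54 in GWAT. In liver 0 of the 7 had an unadjusted p under 0.05 in limma's test. The list's mean log2 level overlapped there, at 7.256, 7.314 and 7.561 on WT against 7.57, 7.598 and 7.493 on KO arrays. Of the 6 lymphocyte markers tested, none passed limma's test in either tissue, and 1, Klrd1, had an unadjusted p under 0.05 (GWAT, -0.35).

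Immediate early genes respond within minutes to stress and growth signals. In GWAT 8 of 15 (53.3%, beside 13.8% of all genes) were lower and none higher. As a lower mean response 6 (40%, beside 7.53% for either direction of all genes) passed. The medians were -0.42 in GWAT and -0.16 in liver, where 7 of the 15 were positive. The list's mean log2 level overlapped in liver, at 7.736, 7.911 and 7.913 on WT against 8.341, 8.054 and 7.66 on KO arrays, with KO 3 lowest. Fos had liver intensities of 165, 166 and 202 with high Cav1 against 405, 255 and 170, and GWAT intensities of 268, 472 and 520 against 1526, 727 and 742. The liver groups overlapped through KO 3, and the GWAT groups did not overlap. The mean response of Fos, -1.12 (adjusted p = 0.0220), was -0.87 without liver KO 1 and -1.37 without KO 3, and its call was lost without liver WT 1, liver WT 2, GWAT WT 1 or GWAT KO 1 (highest adjusted p 0.0609). Junb gave -0.59 in liver and -1.23 in GWAT. Zfp36, which destabilises cytokine mRNA, went apart from these, with 0.35 (SE 0.21) in liver and -0.87 (SE 0.08) in GWAT and a difference of 1.23 (SE 0.27, adjusted p = 0.0103), which was 1.53 without liver KO 1 and 0.92 without KO 3. Summed intensity in liver was 8684 to 15800 on the KO arrays against 9431 to 10290 on the WT arrays, a wide spread within KO.

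Extracellular matrix genes were lower in GWAT for 12 of 25 tested and higher for 1 with high Cav1. The 12 are 48% of the list, beside 13.8% of all genes. In liver, none passed (0 higher and 3 lower at an unadjusted p under 0.05), and the list medians were alike, at -0.10 in liver and -0.16 in GWAT. As a lower mean response 10 (40%, beside 7.53% for either direction of all genes) passed. Among them are Col1a1 and Col15a1, whose liver responses lay above 0, so for these the mean rests on GWAT. The test of a difference was passed by 6 (24%, beside 7.67%), all with the lower response in GWAT (Col1a1, Col15a1, Col4a2, Col6a1, Col6a2 and Col18a1). Col1a1, the main fibrillar collagen chain, had GWAT intensities of 1165, 1238 and 1290 with high Cav1 against 3374, 3658 and 2312. In liver it was near background, at 107 to 137 in overlapping groups. The responses of -1.34 (SE 0.14) and 0.37 (SE 0.24) differed by 1.72 (SE 0.25, adjusted p = 8.61e-04). Col15a1, a basement membrane collagen, gave -1.14 (SE 0.08) in GWAT and 0.39 (SE 0.24) in liver. At these liver levels the response depends on the background correction.

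A few other cell type markers differed between tissues. Of 19 endothelial markers, Stab1 was lower in GWAT (-1.43, SE 0.09) and not in liver (0.09, SE 0.19), and Lyve1, a receptor of lymphatic and liver sinusoidal endothelium, gave -1.16 (SE 0.30) in liver and 0.38 (SE 0.12) in GWAT; the list medians were -0.01 in both tissues. Other Stab1 probes gave -0.59 and 0.49 in GWAT, so the probes disagree. Lyve1 was near background in liver, with means of 126.5 on WT and 169.6 on KO arrays, and above it on 1 of 3 WT arrays. The size of its liver response therefore depends on the background correction. Upk3b, a marker of mesothelium, had lower liver values with high Cav1, at 174, 134 and 139 against 214, 212 and 234, with a liver response of -1.24 (SE 0.25, adjusted p = 0.105), a GWAT response of -0.04 (SE 0.07) and a difference of -1.20 (SE 0.26, adjusted p = 0.00990). The 4 mesothelial markers tested had median responses of -0.24 in liver and 0.09 in GWAT and summed to 3819 to 4292 on liver WT and 4079 to 5329 on liver KO arrays. Retnlg, a resistin-like gene of neutrophils, gave 0.53 (SE 0.25) and -1.23 (SE 0.19), while S100a8 gave 0.34 in liver and 1.18 in GWAT. In liver Retnlg was near background too, with means of 138.1 on WT and 122.7 on KO arrays, and above it on 2 of 3 KO arrays.

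Several glutathione and drug-handling enzymes, which liver holds at high levels, changed in GWAT. Of 11 xenobiotic metabolism genes, 6 (54.5%, beside 7.67% of all genes) passed the test of a difference. The larger response was in liver for Cyp2f2 and Ephx1 and in GWAT for Gsta3, Gstm1, Gstt1 and Cyp2e1. In liver Cyp2e1 lay at 37640 to 41990, near the top of the intensity range, where arrays compress differences. Gsta3, a glutathione transferase, had GWAT intensities of 3330, 3261 and 3031 with high Cav1 against 2279, 1878 and 1848, and liver intensities of 24560 to 26100 in overlapping groups. Its responses were 0.70 (SE 0.09) and 0.00 (SE 0.08). Gsta4, which detoxifies lipid aldehydes, was higher in GWAT (1.29, SE 0.10) with a liver response of 0.33 (SE 0.14), and the difference of -0.96 (SE 0.18) passed. Sod3, the extracellular superoxide dismutase, was lower in GWAT (-1.11, SE 0.11) with -0.13 (SE 0.21) in liver, where it was dim, at 139 to 157. In glycolysis, Aldoa (0.42 and -0.71) and Pkm (0.23 and -0.89) passed the test of a difference among 14 genes tested (14.3%, beside 7.67% of all genes). In the cell cycle list, Ccnd2 (0.16 and -1.03) and Ccnd1 (0.32 and -0.26) passed among 15 (13.3%). The Ccnd1 difference was lost in 10 of 12 fits that left out an array (highest adjusted p 0.142), all but those without liver WT 3 or KO 1, and its 2 other probes gave differences of 0.27 and -0.0060 that did not pass. Acute phase, complement, chemokine, proteasome and ribosome lists held 1 to 5 genes past this test each. Their shares were 25%, 14.3%, 28.6%, 4% and 12%, in that order, beside 7.67% of all genes.

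**Figure D4:**
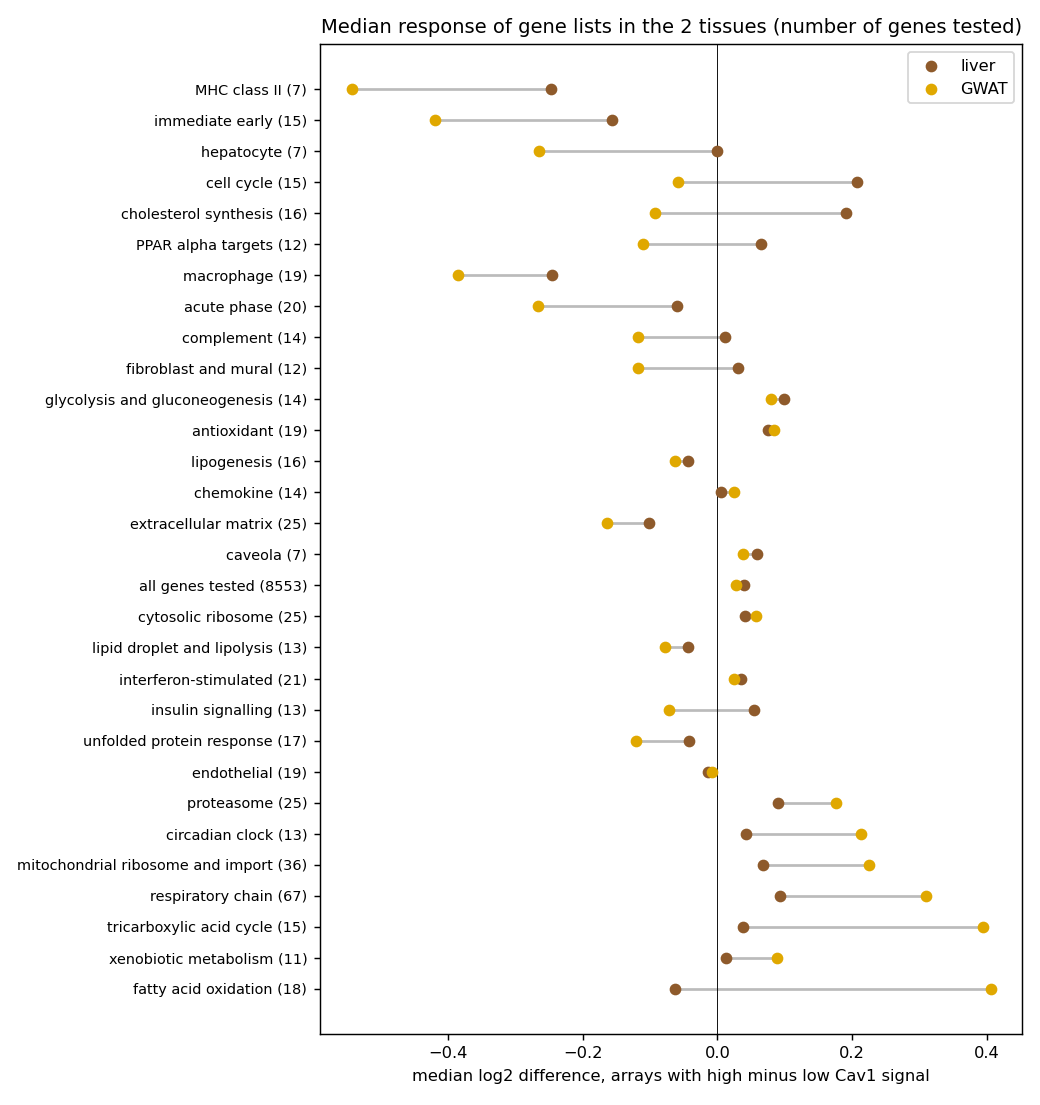
Median response in liver (brown) and GWAT (yellow) of each gene list with at least 7 genes tested, with the number of genes in brackets, ordered by the median difference. All genes tested lie near 0 in both tissues, fatty acid oxidation and the tricarboxylic acid cycle lie near 0.4 in GWAT and near 0 in liver, and MHC class II, immediate early and macrophage genes lie below 0 in both.

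Chromosome 6, which carries Cav1, held 439 of the tested genes (5.13%). Leaving out Cav1, 30 genes had an unadjusted p under 0.01 and the same sign in both tissues, and 4 of these (13.3%) lay there: Rpa3, Ppp1r9a, Tnfrsf1a and Nat8f1. Of the 43 with opposite signs, 1 lay there, Gys2. In the order of tested genes along the chromosome, Cav1 was number 24, Rpa3 number 14 and Ppp1r9a number 4. Ppp1r9a, neurabin, a scaffold of protein phosphatase, had liver intensities of 142, 133 and 146 with high Cav1 against 182, 226 and 200. In GWAT it had 485, 516 and 490 against 631, 664 and 579, and the groups did not overlap in either tissue. Its responses were -1.20 (SE 0.22, adjusted p = 0.0680) and -0.36 (SE 0.09, adjusted p = 0.0103), and the difference of -0.84 (SE 0.23, adjusted p = 0.0286) was lost without background correction and in 8 of 12 fits that left out an array (highest adjusted p 0.0827), all but those without liver WT 1, WT 3, KO 1 or KO 3. A second Ppp1r9a probe, below background in liver, gave 0.04 in GWAT. Of the 23 tested genes before Cav1, 10 passed in GWAT, where 29.5% of all genes passed, and Rpa3 alone in liver. For genes this near to Cav1, a difference in linked DNA and a difference in Cav1 cannot be told apart in this design.

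**Figure D5:**
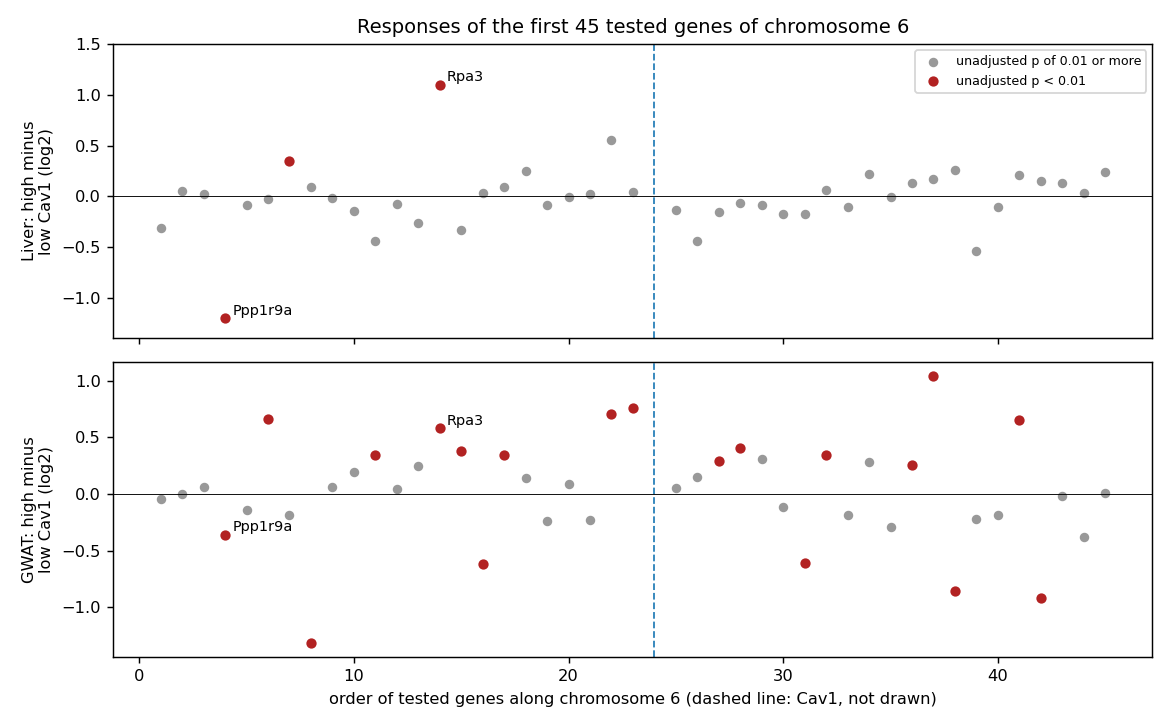
Responses (log2, high minus low Cav1 signal) of the tested genes at the start of chromosome 6 in liver (upper) and GWAT (lower), in their order along the chromosome; red marks an unadjusted p under 0.01 and the dashed line the place of Cav1, whose own values are not drawn. Rpa3 is red above 0 and Ppp1r9a red below 0 in both tissues.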

How the data were processed

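RNA of 12 samples was hybridised as biotin-labelled cRNA to Illumina bead arrays, per the labels' protocols, and the deposited values are probe intensities; the software behind them was not given in the sources used here. They are linear intensities that the authors had already quantile-normalized within each tissue, as found from the deposited values: sorted intensities differed by at most 0.46% between liver arrays and 1.22% between GWAT arrays, and no background was subtracted. The deposited non-normalized tables hold 48 columns named by chip position that match no sample label, and these were not used. Of the probes, 34885 carried 1 gene symbol, 18 several and 10378 none, and 34807 were matched to RefSeq genes of GRCm38.p6 by Entrez identifier. Only probes with 1 symbol were used.

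Intensities were background-corrected by normexp (limma 3.58.1 in R 4.3.3) with 1526 probes of odorant, pheromone and trace amine receptors (olfactory and vomeronasal families) as negative controls, offset 16, then log2-transformed. A probe was above background over the 95th percentile of the receptor probes, and was kept if so on at least 3 of 6 arrays in both tissues; each gene was represented by its brightest probe on average. Responses were fitted within each tissue (6 arrays), their difference and mean on all 12, with lmFit and eBayes (trend by intensity, two-sided tests), and called at a Benjamini-Hochberg adjusted p under 0.05. Groups are the labels' groups. The number of arrays limits the precision: on simulated data with 8553 genes, the test of the difference recovered 18% of log2 changes of 0.5, 88% of 1 and 100% of 2. Named genes are Cav1 and caveola genes, the 8 largest differences each way, all liver calls and the 6 largest shared responses each way. They also include the 5 smallest p-values in each direction combination with p under 0.01 in both tissues, and up to 2 genes passing the difference test per list of 39. The largest differences were ranked among genes that passed the difference test and were above background on all arrays of a group in each tissue. Symbols without annotation were passed over, and other list members named beside a count were chosen after their values were seen. The members and lists were chosen with earlier results of these data known. Alternatives covered background, filter, probe choice, normalization, variance model, replicate block, GWAT sign and each array left out. No label says that replicate numbers pair the samples, and the main fits did not pair them. Deviations of same-numbered arrays correlated at -0.0289 to 0.0151 in liver and -0.00837 to 0.131 in GWAT. Those of arrays with different numbers correlated at -0.0386 to 0.0344 and -0.139 to 0.133. With deviations taken from means of 3 arrays, these values cannot exclude a pairing.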

Additional observations from a re-analysis of the deposited data

Results flagged for a closer look

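The values below are liver responses minus GWAT responses on the log2 scale, listed because the 12-array test of that difference passed at an adjusted p under 0.05 among the genes named above. Cav1 set the direction of both contrasts and is left out. Among the genes with the largest differences, the liver response was the higher one for Apoc4 (2.32), Orm2 (2.30), Plekhg6 (2.14), Cyp2f2 (2.01), Ddit4 (2.00), Ubd (1.89), Anpep (1.89) and Tnfrsf12a (1.84), and the GWAT response for Serpina1d (-2.50), Serpina1b (-2.44), Nudt12 (-1.82), Wdr92 (-1.81), Dact2 (-1.80), Gys2 (-1.78) and Adhfe1 (-1.61). Orm2, Ddit4 and Gys2 of these lost the call under robust variance estimation, with adjusted p of 0.116, 0.120 and 0.0632.

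Of the genes past the threshold in liver, Kcnk5 (0.92), Hes6 (1.23) and Lyz2 (-0.79) differed between tissues. Of the genes chosen by p-values or mean responses in both tissues, Whamm (1.54), Ddah1 (1.04), Cyb5b (0.77), Tlr5 (1.21), Pim3 (0.83), Agt (1.03) and Net1 (1.18) had the higher liver response and Asl (-1.37), Rbbp7 (-1.46), Smu1 (-1.22), Adh5 (-1.03), Gpat3 (-1.23), Ppp1r9a (-0.84), Myl4 (-1.25) and Cxcl9 (-1.09) the higher GWAT response.

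Among list members, the liver response was higher for Mlxipl (0.49), Aldoa (1.13), Pkm (1.11), Pik3r1 (0.84), Col15a1 (1.53), Col1a1 (1.72), C6 (0.97), Serping1 (0.41), Ccl9 (0.73), Zfp36 (1.23), Per1 (0.72), Sod3 (0.99), Ccnd2 (1.19), Ccnd1 (0.58), Rpl23 (0.44), Ahsg (0.74), Lgals3 (1.75), Retnlg (1.76), Stab1 (1.51), Cspg4 (1.28), Dpt (0.89) and Cela1 (0.95). The GWAT response was higher for Atp5pb (-0.99), Sdhb (-1.10), Suclg1 (-0.68), Idh2 (-1.09), Acadl (-1.61), Acaa2 (-1.02), Mrpl9 (-0.76), Mrpl15 (-0.52), Agpat2 (-0.96), Psmb8 (-0.68), Gsta4 (-0.96), Rps6 (-0.55), Psmc1 (-0.58), Gsta3 (-0.70), Cyp2e1 (-0.41), Lyve1 (-1.54), Mylk (-1.02) and Upk3b (-1.20). With 1 array left out, the difference was lost in at least 1 of 12 fits for 14 of the 73 genes: Ddit4 (3 fits), Ppp1r9a (8), Mrpl15 (6), Mlxipl (9), Pik3r1 (7), Serping1 (2), Psmb8 (10), Per1 (8), Ccnd1 (10), Rpl23 (2), Psmc1 (5), Cyp2e1 (4), Ahsg (5) and Dpt (6). Of the 73, 32 had another probe above background in both tissues. For 11 of these every such probe passed with the same sign, and for 6 some probe gave the opposite sign (Atp5pb, Ccnd1, Rbbp7, Rpl23, Stab1 and Wdr92). The sign of each difference depends on reading the GWAT groups by their Cav1 signal.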

How the results depend on the processing

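The difference between tissues had 656 genes, against 1062 without background correction and 1902 with array weights (641 and 655 of the 656 among them), and 340 (without GWAT WT 2) to 1078 (without liver KO 1) when 1 array was left out. The mean response had 644 genes, against 1053 and 1873, and 308 to 983 with 1 array left out. The liver count of 6 became 11 without a filter on dim probes, 2 with probes averaged per gene, 0 when the intensity trend was dropped (limma with the trend had 800 genes at an unadjusted p under 0.05), 296 with array weights, 65 in the 12-array fit and 24 with the replicate block, and 2 to 103 with 1 array left out. The GWAT count of 2526 became 1224 in the 12-array fit, and 1590 to 2513 with 1 array left out. Genes in both tissues numbered 3, against 0 without a trend, 7 with robust variances, 145 with array weights, 17 in the 12-array fit, 12 with the replicate block and 74 at an unadjusted p under 0.01, and 1 to 47 with 1 array left out. Of the 145, 62 had the same sign. Pearson's r stayed between -0.0326 and 0.0365 with 1 array left out. The replicate block, which no label supports, gave 580 genes for the difference (538 shared with the 656) and 555 for the mean response. The causes of these moves were not tested.

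No intensity trend ended all 6 liver calls. Without background correction Ppp1r9a gave -0.20 and lost its call. With the GWAT sign turned, as the labels have it, 644 genes passed as a difference, and 47 called differences beside Cav1 changed sign: Apoc4 -1.96, Orm2 -1.85, Plekhg6 -1.44, Cyp2f2 -1.59, Ubd -1.76, Anpep -1.37, Tnfrsf12a -1.52, Serpina1d 2.54, Serpina1b 2.35, Nudt12 0.0389, Dact2 1.05, Adhfe1 0.19, Whamm -0.32, Ddah1 -0.0328, Agt -1.99, Myl4 2.29, Cxcl9 1.74, Net1 -1.99, Atp5pb 0.13, Sdhb 0.61, Suclg1 0.69, Idh2 0.44, Mrpl15 0.37, Aldoa -0.29, Pkm -0.66, Pik3r1 -0.37, Col15a1 -0.76, Col1a1 -0.97, C6 -0.40, Serping1 -0.24, Ccl9 -1.17, Zfp36 -0.52, Per1 -0.32, Gsta4 1.62, Sod3 -1.24, Ccnd2 -0.87, Psmc1 0.17, Gsta3 0.70, Cyp2e1 0.42, Ahsg -1.05, Lgals3 -1.49, Retnlg -0.70, Stab1 -1.34, Cspg4 -1.45, Dpt -0.76, Mylk 0.52, Cela1 -0.25. The filter on dim probes and the background correction limit what can be said of genes near background in liver. Among them are Cav1, Cavin1, Lyve1, Retnlg, Ubd, Sod3, Dact2, Cspg4, Dpt and the collagens. Serpina1b, Serpina1d, Cyp2e1 and Ahsg lay near the top of the intensity range in liver, where arrays compress differences.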

Other observations

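Other gene groups also held genes that changed in GWAT. Of 17 unfolded protein response genes, 5 (29.4%, beside 13.8% of all genes) were lower and 1 higher in GWAT with high Cav1. Of 25 proteasome genes, 7 (28%, beside 15.8% of all genes) were higher and none lower in GWAT. Psmc1, an ATPase of the proteasome's regulatory particle, gave 0.38 in GWAT and -0.20 in liver. The test of a difference between tissues was passed by none of the 17, by 1 of the 25, and by 5 of 20 acute phase genes (25%) and 4 of 14 chemokine genes (28.6%), beside 7.67% of all genes. Among acute phase genes, Saa1 gave -1.97 in GWAT and -0.04 in liver, Mt2, a metallothionein, gave -1.10 and -0.37, and Saa3 gave 0.88 and 0.02. Cxcl9 and Cxcl10, chemokines induced by interferon gamma, were higher in GWAT (1.41 and 1.06) with liver values of 0.33 and 0.16, while Ccl9 and Ccl6 were lower there (-0.95 and -0.71) with liver values of -0.22 and -0.28. Cdkn1a, an inhibitor of the cell cycle, gave -1.04 in GWAT and -0.78 in liver. These list members were chosen after their values were seen.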
